A study of Arabidopsis with 4 samples.

Results

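The photoreceptor genes PHYA, PHYB, PHYC, PHYD, PHYE, CRY1 and CRY2, the repressor genes COP1 and SPA1, and the transcription factor gene HY5 were followed in Arabidopsis seedlings of the wild type and of the mutant jmj28-2. These 10 genes, of the 32833 in the deposited table, were picked by their gene identifiers as the core of light perception and signalling. The rule itself uses no measured value, but it was set with earlier results of these data known. RNA sequencing covered 4 libraries of whole seedlings in the Col-0 background, 2 of them wild type (Col-0) and 2 jmj28-2, a line named for the JmjC-domain histone demethylase gene JMJ28. All seedlings were 12 days old and had been raised on half-strength MS medium with 1% sucrose at 23 °C in long days (light for 16 h, darkness for 8 h). The position of the mutation in JMJ28, the time of day of harvest and whether replicate libraries stem from separate plantings are details that the sources used here do not give. The p-values therefore reflect library-to-library spread, which could be technical in part or whole.

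Phytochromes are red and far-red light receptors that carry a bilin chromophore and move into the nucleus when activated by light. Cryptochromes are flavin-containing receptors of blue light. In the dark, the COP1 ubiquitin ligase, together with SPA proteins, marks light-promoting transcription factors such as HY5 for degradation. Activated phytochromes and cryptochromes bind COP1/SPA complexes and inhibit them, so HY5 accumulates and turns on genes of pigment synthesis and photoprotection. Much of this control acts on protein activity and stability, which transcript levels do not measure.

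Levels are given as TPM, a transcript abundance scaled by transcript length and to a fixed total per library. Errors are standard deviations over n = 2 libraries, and log2 changes are differences of log2(TPM + 1), jmj28-2 minus Col-0, from limma. All 10 genes lay above the minimum mean of 1 TPM and were tested among 19764 genes. Of the 10 genes, 0 were called higher and 0 lower in jmj28-2 at a limma adjusted p under 0.05, against 0.0405% and 0.0354% of all genes tested. At an unadjusted p under 0.05 the counts were also 0 and 0, against 9.5% higher and 4.36% lower over all genes. The median log2 change of the 10 genes was -0.036, beside 0.028 over all genes tested. Sequencing depth is unknown, since TPM do not keep it.

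The whole-seedling label was checked with marker genes. Leaf markers were abundant, led by the light-harvesting gene LHCB1.3 and by RBCS1A of the Rubisco small subunit. The 7 leaf markers summed to 67182.3 and 66024.8 TPM in Col-0, to 61232.4 TPM in jmj28-2 replicate 1 and to 67499.0 TPM in jmj28-2 replicate 2. All 15 root markers were detected, among them CASP1 of the endodermal barrier at 30.03 to 58.73 TPM. The 5 floral organ markers and 4 seed markers had means under 1 TPM, and 1 of the floral markers was listed at 0 throughout. The 15 root markers summed to 2163.0 and 2124.2 TPM in the wild type, to 2275.9 TPM in jmj28-2 replicate 1 and to 1828.4 TPM in jmj28-2 replicate 2. Most of this sum is PYK10, and the other 14 root markers made 195.7 and 200.8 TPM in Col-0, 198.5 TPM in jmj28-2 replicate 1 and 126.3 TPM in jmj28-2 replicate 2. In 14 of the 15 root markers jmj28-2 replicate 2 was the lowest library, beside 31.9% of the 19499 tested genes above 0 in all 4 libraries. In bulk seedlings, fewer cells of a type and less RNA per cell cannot be told apart. JMJ28 itself measured 7.63 and 7.70 TPM in the Col-0 libraries, against 5.45 and 5.72 TPM in the mutant, lower in both mutant libraries but not called (limma adjusted p = 0.235).

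**Figure D1:**
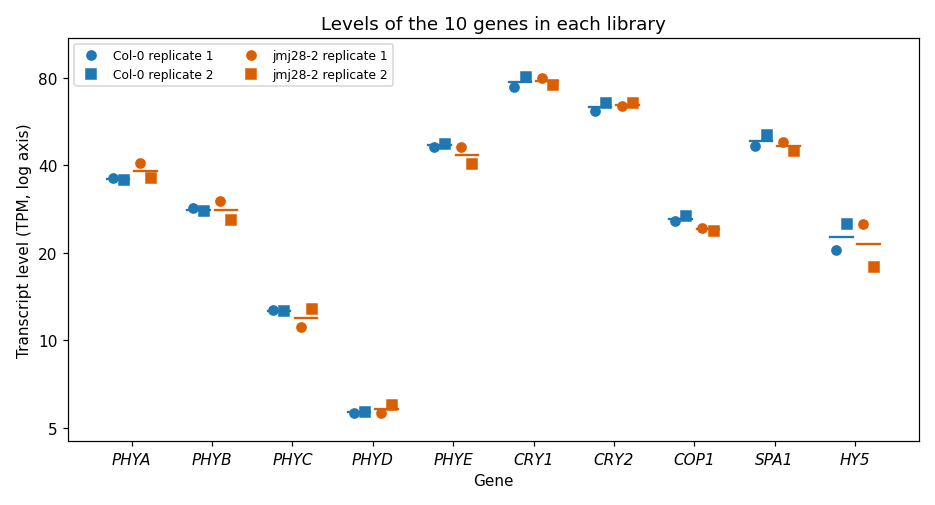
Transcript level in TPM on a log axis for each of the 10 genes, with 1 point per library (blue Col-0, orange jmj28-2; circles replicate 1, squares replicate 2) and a line at each genotype mean. Levels run from about 5.62 TPM for PHYD to 80.89 TPM for CRY1, and the genotypes lie apart for COP1 alone, by a small margin.

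The 10 genes differed far more from one another than between genotypes, where mutant means were between 0.917 (COP1) and 1.07 (PHYA) times the wild-type means. CRY1 was the most abundant, with a mean of 77.8 TPM over the 4 libraries, which placed it within the top 9.57% of the genes tested. CRY2 followed at 64.1 TPM, then SPA1 at 47.6, PHYE at 45.1, PHYA at 37.2, PHYB at 28.1, COP1 at 25.2, HY5 at 22.1, PHYC at 12.3 and PHYD at 5.72 TPM. This order was the same in 3 of the 4 libraries. In jmj28-2 replicate 1, HY5 stood above COP1. The ranges over the 4 libraries overlapped for 4 neighbouring pairs, namely SPA1 and PHYE, PHYE and PHYA, PHYB and COP1, and COP1 and HY5. They did not overlap for CRY1 and CRY2, CRY2 and SPA1, PHYA and PHYB, HY5 and PHYC, or PHYC and PHYD.

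Among the phytochromes, PHYA (AT1G09570), the light-labile receptor that acts in far-red light and in seedling emergence, reached 36.09 and 35.77 TPM in wild-type seedlings, with 40.67 and 36.07 TPM in those of jmj28-2. The library jmj28-2 replicate 1 was high, while the other mutant library lay between the Col-0 values. The log2 change was 0.0899 with a 95% interval from -0.111 to 0.291, which is 0.926 to 1.22 times on the TPM + 1 scale (limma adjusted p = 0.655). Intervals here and below are those of single genes, not adjusted for the number of genes.

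PHYB (AT2G18790), the main light-stable receptor of red light and shade, stood at 28.43 and 27.81 TPM in the wild type and at 30.16 and 25.94 TPM in the mutant. The mutant libraries fell on either side of both wild-type libraries, and the means were nearly equal (28.1 ± 0.438 and 28.1 ± 2.98 TPM, log2 change -0.00721, limma adjusted p = 0.979). Its 95% interval ran from 0.848 to 1.17 times.

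PHYC (AT5G35840), whose protein works largely as a partner of other phytochromes, measured 12.66 and 12.57 TPM in the Col-0 libraries, against 11.09 and 12.79 TPM in the mutant. Here jmj28-2 replicate 1 was the lowest library and replicate 2 the highest, the reverse of PHYB. The interval of the change was 0.8 to 1.12 times (limma adjusted p = 0.765).

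PHYD (AT4G16250), the closest relative of PHYB and partly redundant with it in shade responses, reached 5.62 and 5.67 TPM in wild-type seedlings, with 5.63 and 5.96 TPM in those of jmj28-2. All 4 libraries lay within a factor of 1.06. The interval was 0.854 to 1.22 times (limma adjusted p = 0.915).

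PHYE (AT4G18130), another light-stable phytochrome with a part in shade avoidance and germination, stood at 46.19 and 47.53 TPM in the wild type and at 46.43 and 40.31 TPM in the mutant. Only jmj28-2 replicate 2 stood apart, below the other three. The log2 change was -0.113 and the interval 0.796 to 1.07 times (limma adjusted p = 0.604). PHYE was the only member whose RefSeq gene overlaps a neighbour, SSP4b, listed at 7.67 to 8.73 TPM, and the sources used here do not say whether reads were assigned by strand.

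The phytochrome transcripts summed to 129.0 and 129.4 TPM in Col-0 and to 134.0 and 121.1 TPM in jmj28-2, so the mutant libraries lay on both sides of the wild type. PHYE held the largest share of this sum in each library. Its share was 35.8% and 36.7% in Col-0 and 34.7% and 33.3% in jmj28-2. PHYA held 28% and 27.7% in Col-0 and 30.4% and 29.8% in jmj28-2. For these 2 genes the shares of the genotypes did not overlap, with a mean difference of 2.26 percentage points for PHYA and -2.3 for PHYE. Shares of a sum depend on one another, and the TPM levels of both genes overlapped. In levels, 29.0% of all genes tested lay higher and 17.6% lower in both mutant libraries. The PHYB share, at 22.0% and 21.5% against 22.5% and 21.4%, overlapped, as did those of PHYC and PHYD. PHYA transcripts were 1.27 and 1.29 times those of PHYB in Col-0, and 1.35 and 1.39 times in jmj28-2. PHYB transcripts were 4.35 to 5.36 times those of PHYD. No test was made of the shares, since the smallest two-sided p that an exact permutation test allows here is 2 in 6.

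**Figure D2:**
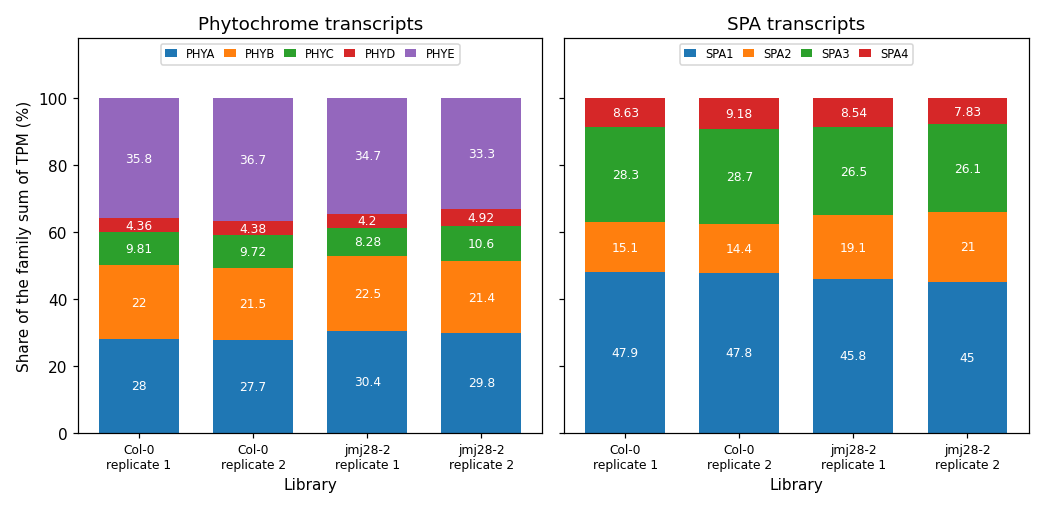
Share in percent of each gene in the summed TPM of the phytochromes (left) and of SPA1 to SPA4 (right), 1 bar per library. PHYE is the largest phytochrome share in each bar, and the SPA2 share is 14.4% to 15.1% in Col-0 and 19.1% to 21.0% in jmj28-2.

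For the cryptochromes, levels in the genotypes overlapped closely. CRY1 (AT4G08920), which mediates most inhibition of stem growth in blue light, measured 74.38 and 80.89 TPM in the Col-0 libraries, against 80.00 and 75.96 TPM in the mutant. Both mutant values fell between the wild-type values. The interval was 0.89 to 1.13 times (log2 change 0.00708, limma adjusted p = 0.974). Its sign, like that of CRY2, turned under both rescalings of the libraries.

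CRY2 (AT1G04400), a light-labile receptor that also promotes flowering in long days, reached 61.46 and 65.37 TPM in wild-type seedlings, with 64.03 and 65.47 TPM in those of jmj28-2. The spread between the Col-0 libraries was larger than the difference between the genotype means of 63.4 and 64.8 TPM. The interval, 0.916 to 1.14 times, was the narrowest of the 10 (limma adjusted p = 0.863). The CRY1 to CRY2 ratio was 1.21 and 1.24 in Col-0 and 1.25 and 1.16 in jmj28-2. CRY1 and CRY2 together were 1.05 to 1.17 times as abundant as the phytochrome transcripts together.

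COP1 (AT2G32950), the RING-type ubiquitin ligase, stood at 25.68 and 26.81 TPM in the wild type and at 24.32 and 23.81 TPM in the mutant. Both mutant libraries lay below both wild-type libraries, which was the case for 1 of the 10 genes and for 17.6% of all genes tested. None of the 10 genes lay higher in both mutant libraries, beside 29.0% of all genes. The COP1 means were 26.2 ± 0.799 and 24.1 ± 0.361 TPM, a ratio of 0.917. COP1 had the smallest p of the 10 genes but was not called (log2 change -0.12, SE 0.0668, limma adjusted p = 0.493), and its interval, 0.818 to 1.04 times, included 1.

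SPA1 (AT2G46340), a WD-repeat protein with a kinase-like domain that acts with COP1, measured 46.61 and 50.84 TPM in the Col-0 libraries, against 48.20 and 44.90 TPM in the mutant. The genotypes overlapped, and the interval was 0.838 to 1.09 times (limma adjusted p = 0.743). SPA1 transcripts were 1.82 and 1.9 times those of COP1 in Col-0, and 1.98 and 1.89 times in jmj28-2.

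HY5 (AT5G11260), the bZIP factor that COP1/SPA complexes target in darkness, varied most. It reached 20.38 and 25.10 TPM in wild-type seedlings, with 25.17 and 17.81 TPM in those of jmj28-2. One library of each genotype was at about the same high level, and jmj28-2 replicate 2 was the lowest. The means, 22.7 ± 3.34 and 21.5 ± 5.2 TPM, differed by less than either SD. The interval of the change, 0.678 to 1.3 times, was the widest of the 10 (log2 change -0.0904, limma adjusted p = 0.864). The direction turned without Col-0 replicate 2 (log2 change 0.0534) and without jmj28-2 replicate 2 (0.15).

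**Figure D3:**
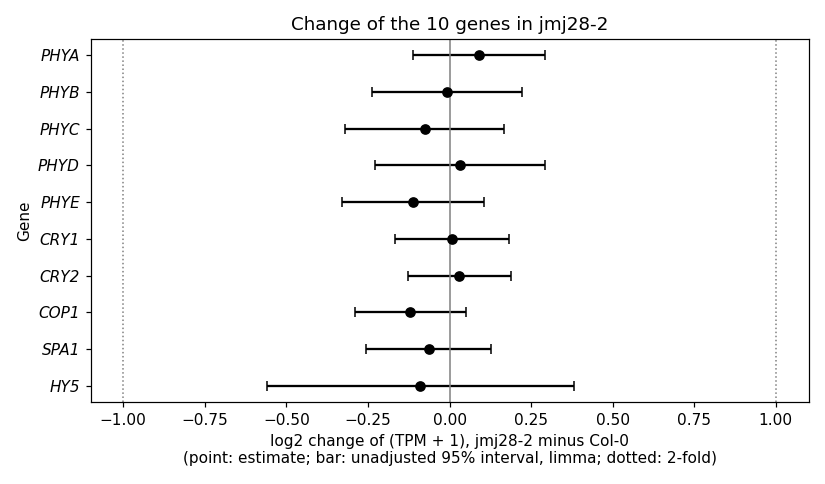
log2 change of TPM + 1 in jmj28-2 against Col-0 for each gene (point) with its unadjusted 95% interval from limma (bar), and dotted lines at a 2-fold change. Every interval holds 0 and lies inside the dotted lines, and that of HY5 is the widest, from -0.561 to 0.38.

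The stability of the other 9 genes can be read from the ratio of the highest to the lowest library. It was 1.06 for PHYD, 1.07 for CRY2, 1.09 for CRY1 and 1.13 to 1.18 for PHYA, PHYB, PHYC, PHYE, COP1 and SPA1. Over the 19499 tested genes above 0 in all 4 libraries the median was 1.21, and over those with a mean of at least 5 TPM it was 1.18. For HY5 the ratio was 1.41, larger than that of 76.7% of all genes. PHYD and CRY2 had ratios larger than 4.76% and 5.86% of all genes. These ranks describe the 4 libraries and were not tested.

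In jmj28-2, 7 of the 10 genes were lower in replicate 2 than in replicate 1, beside 63.2% of the 19499 tested genes above 0 in all 4 libraries. Without that library, 5 of the 10 genes had a higher mean in the mutant and 5 a lower one, against 4 and 6 with all libraries.

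Genes known as HY5 targets were read in the same libraries. All 12 listed targets were tested, and 3 of them are also in other lists. With limma, 0 were called in either direction, and 0 had an unadjusted p under 0.05. In jmj28-2, 3 had a higher and 9 a lower mean, beside 57.3% of all genes higher. After rescaling by the median log ratio the split was 2 and 10, beside 49.3% of all genes higher. Under quantile normalization it was again 2 and 10. Between the mutant libraries, 10 of the 12 were lower in replicate 2 than in replicate 1, beside 63.2% of all genes, with a median log2 ratio of -0.27, beside -0.057 over all genes. In 9 of the 12, replicate 2 of jmj28-2 was the lowest library, beside 31.9% of all genes. That library was also the lowest for 6 of 9 other COP1 substrates, 5 of 10 clock genes and 3 of 7 phytochrome-interacting factors. It was the lowest for 5 of 12 shade and PIF targets, 9 of 23 cofactors, 6 of 21 COP1 partners and 2 of 7 other photoreceptors. Lower in replicate 2 than in replicate 1 were 10 of 10 clock genes, 8 of 9 other COP1 substrates and 16 of 21 COP1 partners. Their median log2 ratios were smaller in size, at -0.065, -0.113 and -0.067. The counts were 16 of 23 for cofactors, 4 of 7 for phytochrome-interacting factors, 6 of 12 for shade and PIF targets and 3 of 7 for other photoreceptors. MYB12, an activator of flavonol genes, stood at 4.20 and 4.29 TPM in the wild type and at 5.10 and 3.03 TPM in the mutant. CHS, which encodes the entry enzyme of flavonoid synthesis, measured 191.96 and 195.32 TPM in the Col-0 libraries, against 211.78 and 175.52 TPM in the mutant. For both, the mutant libraries lay above and below the wild type, and these 2 genes were chosen after their values were seen. Jmj28-2 replicate 2 is also the library with the lowest root marker sum (1828.4 TPM over all 15, and 126.3 TPM without PYK10). It had the highest leaf marker sum as well (67499.0 TPM). The part of either in these values was not tested.

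HYH, the closest homologue of HY5, reached 50.37 and 45.28 TPM in wild-type seedlings, with 53.01 and 35.50 TPM in those of jmj28-2, 1.8 to 2.47 times the level of HY5 in each library. It too was lowest in jmj28-2 replicate 2, and HY5 and HYH together made 53.3 TPM there and 70.4 to 78.2 TPM in the other libraries. HYH was likewise named after its values were seen. By the fixed rule, the targets with the smallest p were RUP2, AT1G70000 and ELIP1. RUP2, a repressor of the UV-B receptor, averaged 15.8 ± 0.955 TPM in the wild type and 12.3 ± 2.32 TPM in the mutant (limma adjusted p = 0.364). AT1G70000 had 17.3 ± 0.276 and 15.4 ± 0.0919 TPM (0.409), and ELIP1, an early light-induced protein of chloroplasts, 39.4 ± 0.12 and 35.1 ± 5.98 TPM (0.577).

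**Figure D4:**
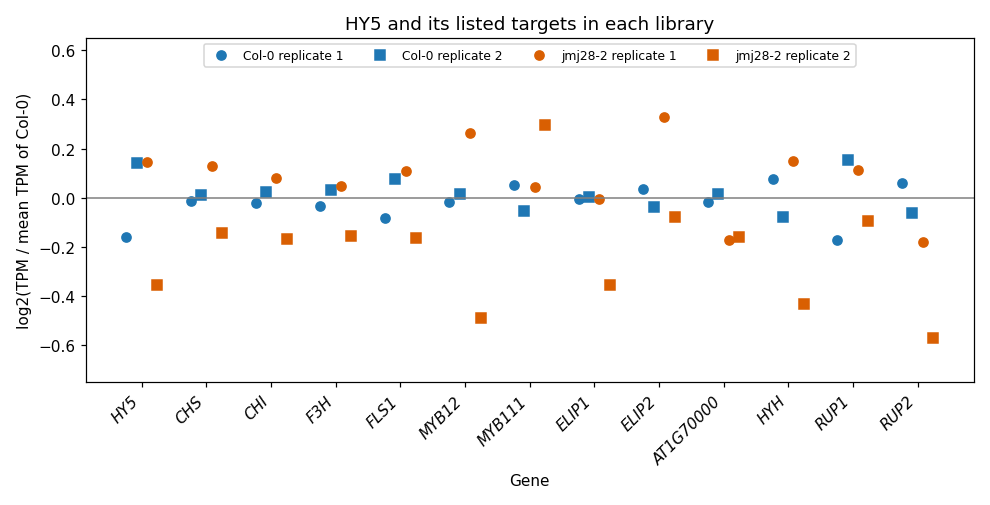
log2 of the TPM in each library over the Col-0 mean for HY5 and its 12 listed targets (blue Col-0, orange jmj28-2; circles replicate 1, squares replicate 2). The orange square, jmj28-2 replicate 2, is below the orange circle for HY5 and for 10 of the 12 targets, MYB111 and AT1G70000 being the exceptions.

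Other parts of the light pathway were taken from 8 lists holding 99 different genes, of which 97 were tested. Not one was called with limma in any setting tried. At an unadjusted p under 0.05, 9 had a higher and 9 a lower mean, which is 9.28% each way, beside 9.5% and 4.36% of all genes tested. Their median log2 change was 0.006. Counts of higher and lower means below are for the values as deposited, and both rescalings moved up to 2 genes per list from higher to lower in lists other than that of the COP1 partners.

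COP1 partners comprised the other SPA genes, the CUL4-DDB1 ligase, DET1 and COP10, the COP9 signalosome, and the RUP repressors. Of the 21, all tested, 17 had a higher mean in jmj28-2 and 4 a lower one, and 57.3% of all genes had a higher mean. After rescaling by the median log ratio the split was 13 higher and 8 lower, beside 49.3% of all genes higher, and under quantile normalization it was again 13 and 8. The median log2 change was 0.061, with 0 called. SPA2, a SPA1 relative that is active chiefly in dark-grown seedlings, stood at 14.66 and 15.29 TPM in the wild type and at 20.13 and 20.99 TPM in the mutant. Both mutant libraries lay above the wild type, yet SPA2 was not called (log2 change 0.433, SE 0.0734, limma adjusted p = 0.182). Of the 21 partners, 8 lay higher and 1 lay lower in both mutant libraries, beside 29.0% and 17.6% of all genes. SPA1, SPA3 and SPA4 had lower means, and the SPA2 share of the SPA transcripts was 15.1% and 14.4% in Col-0 and 19.1% and 21.0% in jmj28-2. The sum over SPA1 to SPA4 was 101.8 ± 6.47 and 102.5 ± 3.9 TPM. DDB1B, an adaptor of the CUL4 ligase, had 9.93 ± 0.0566 and 12.1 ± 0.94 TPM (adjusted p = 0.324).

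Among COP1 substrates other than HY5, 9 of 10 were tested, of which 3 had higher means, 6 lower means and 0 a call. Of these 9, 0 lay higher and 3 lay lower in both mutant libraries, beside 29.0% and 17.6% of all genes. PAP1, a MYB activator of anthocyanin synthesis, measured 4.54 and 3.82 TPM in the Col-0 libraries, against 2.53 and 2.34 TPM in the mutant (log2 change -0.59, limma adjusted p = 0.235). BBX25 and BBX24, B-box proteins that restrain HY5 activity, had 51.6 ± 0.283 against 42.6 ± 7.5 TPM and 252.3 ± 2.09 against 236.2 ± 7.12 TPM (adjusted p = 0.395 and 0.496). PAP2 lay under the filter.

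The phytochrome-interacting factors, bHLH proteins several of which promote elongation, had 3 higher and 4 lower means among 7 tested, and 0 called. PIF7, a factor of the shade response, reached 29.23 and 28.41 TPM in wild-type seedlings, with 23.50 and 22.77 TPM in those of jmj28-2 (log2 change -0.305, limma adjusted p = 0.224). PIF5 had 83.4 ± 5.82 and 95.8 ± 0.665 TPM (0.314), and PIF3 10.1 ± 0.587 and 12.3 ± 0.537 TPM (0.319). Over the 7 factors, both mutant libraries lay above both wild-type libraries for 2 and below them for 3, beside 29.0% and 17.6% of all genes. Of 13 shade and PIF target genes, 12 were tested, of which 5 had higher means, 7 lower means and 0 a call. In both mutant libraries 2 of the 12 lay higher and 4 lay lower, beside the same shares of all genes. PRE1, a small growth-promoting HLH protein, stood at 5.0 and 4.96 TPM in the wild type and at 2.76 and 2.26 TPM in the mutant (log2 change -0.772, limma adjusted p = 0.195). PAR1, a negative regulator of shade responses, had 9.39 ± 0.191 and 7.71 ± 1.17 TPM, and the homeobox gene ATHB4 1.33 ± 0.0212 and 1.95 ± 0.141 TPM (0.418 and 0.461).

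Of the 7 other photoreceptor genes, 4 had a higher and 3 a lower mean, with 0 called. PHOT2, a blue-light receptor of chloroplast movement, measured 90.83 and 93.01 TPM in the Col-0 libraries, against 79.58 and 83.71 TPM in the mutant (limma adjusted p = 0.314). FKF1, a blue-light receptor of photoperiodic flowering, reached 2.06 and 2.18 TPM in wild-type seedlings, with 3.50 and 2.95 TPM in those of jmj28-2 (0.325). PHOT1, the main receptor of phototropism, had 128.8 ± 9.24 and 117.7 ± 2.53 TPM (0.483). Of the 7 genes, 1 lay higher and 2 lay lower in both mutant libraries, beside the same 29.0% and 17.6% of all genes. Of 23 cofactors of phytochromes and cryptochromes, all tested, 11 had a higher and 12 a lower mean, with 0 called. In both mutant libraries 7 of the 23 lay higher and 7 lay lower, beside the same shares of all genes. CIB1, a CRY2-binding bHLH factor, had 11.4 ± 0.537 and 14.6 ± 0.184 TPM (0.235). HMR, needed for phytochrome signalling and plastid transcription, had 42.8 ± 3.08 and 51.8 ± 1.05 TPM (0.256). BIC1, an inhibitor of cryptochrome activation, had 28.9 ± 0.163 and 22.6 ± 2.53 TPM (0.257).

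**Figure D5:**
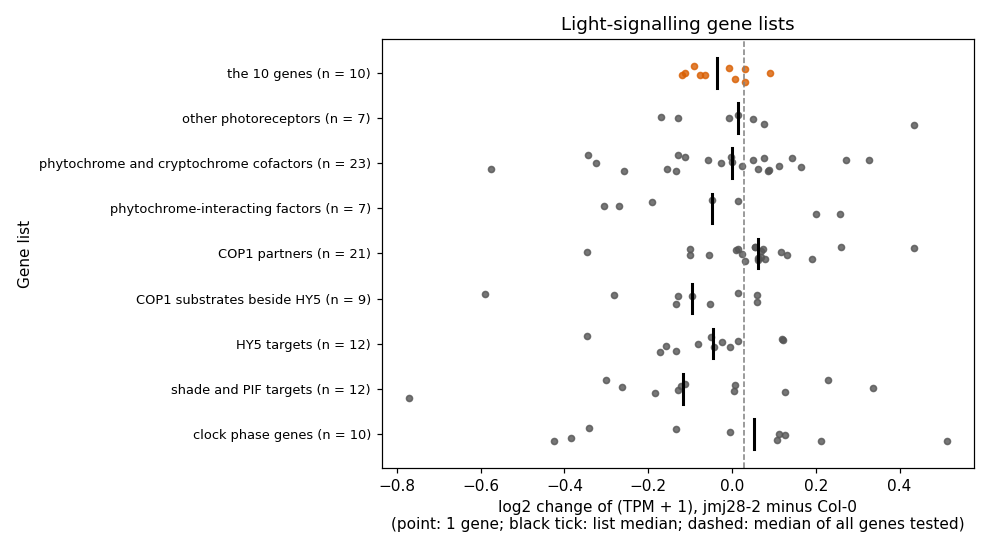
log2 change of TPM + 1 in jmj28-2 against Col-0 for each tested gene (point) of the 10 genes and of 8 light-signalling lists, with the list median (black tick) and the median of all genes tested, 0.028 (dashed). The 10 genes lie between -0.12 and 0.09, and single genes of the other lists reach -0.772 (PRE1) and 0.512 (PRR5).

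Several photoreceptor genes are known to follow the circadian clock, so clock genes were read in the same libraries. Of 10, all tested, 5 had a higher and 5 a lower mean, with 0 called. Both mutant libraries lay above both wild-type libraries for 5 and below them for 3, beside 29.0% and 17.6% of all genes. At a limma unadjusted p under 0.05, 2 were higher and 2 lower, beside 9.5% and 4.36% of all genes. PRR5 had 15.7 ± 0.247 and 22.8 ± 0.0283 TPM (limma adjusted p = 0.142), PRR9 34.8 ± 0.0212 and 27.3 ± 0.332 TPM (0.197), and the morning gene CCA1 57.2 ± 3.9 and 42.6 ± 6.77 TPM (0.266). The part of clock phase in the photoreceptor values was not tested.

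For the members with the smallest p, the listed light-pathway genes most alike over the 4 libraries were sought among 97 candidates, by the root mean square difference of centred log2(TPM + 1) values. Nearest to COP1 were AT1G70000 (0.0254) and PHOT1 (0.0309). Nearest to PHYE were AT2G16365 (0.023) and TZP (0.0237), and nearest to PHYA were CRY3 (0.0174) and TOC1 (0.0224). With 4 libraries these distances are descriptions only.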

How the data were processed

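The authors deposited 1 table of values per gene and library. It is labelled FPKM, but its columns sum to 998943 to 999014, so these deposited values are handled as TPM. The submitters' processing notes name TopHat, RSEM, edgeR and the build TAIR10. The sources used here give no versions, filters or strand use. TPM share a fixed total, and reads of similar genes are divided by estimation. Columns were matched to libraries by name.

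Genes with a mean of at least 1 TPM (19764 of 32833) were transformed as log2(TPM + 1) and fitted by genotype alone with limma 3.58.1 under R 4.3.3, with a trend of variance on level (residual degrees of freedom 2, prior 3.18). Two-sided tests were used, with Benjamini-Hochberg adjustment over all genes tested and calls at an adjusted p under 0.05. The fit was also run on simulated data, in which the spread depended on mean level alone. No result here rests on that run. Figures were drawn with matplotlib 3.10.9.

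The 10 genes and the lists were chosen with earlier results of these data known. Named genes are the 10 members, JMJ28, the 3 smallest p of each list, the genes most like the 3 members with the smallest p, and the most abundant markers. Other genes named in the text (SSP4b, MYB12, MYB111, CHS, HYH, PAP2, SPA3 and SPA4) were chosen after their values were seen. Symbols come from the table or from RefSeq (TAIR10.1), used for names and overlap of genes only. No sequences are shown.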

Additional observations from a re-analysis of the deposited data

How the results depend on the processing

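All settings were planned. Over the 13 alternatives (9 changes of a choice and 4 left-out libraries), 0 of the 10 genes and 0 genes of the pathway lists were called, and the smallest adjusted p of a member was 0.302, for PHYE without jmj28-2 replicate 1. In each fit without a library, the spread comes from the other genotype and from all genes, and the lone library is assumed to vary alike, so these fits say little of stability. The log2 changes of PHYA, PHYE, COP1 and SPA1 kept their sign in all 13. Those of CRY1 and CRY2 turned to -0.026 and -0.00282 after rescaling by the median log ratio and to -0.0429 and -0.0112 under quantile normalization, both of which bring the median of all genes close to 0 from 0.028. Leaving out 1 library gave -0.11 to 0.0978 for PHYB, -0.17 to 0.0184 for PHYC, -0.00325 to 0.0668 for PHYD, -0.0527 to 0.0668 for CRY1, -0.0136 to 0.074 for CRY2 and -0.33 to 0.15 for HY5, each turning sign. The counts over all genes, 8 higher and 7 lower, became 5 and 3 with a pseudocount of 0.01 TPM and 29 and 14 with robust fitting. There were 4 higher without a filter, 3 higher without the trend, and 4 lower with a mean of at least 5 TPM. Leaving out 1 library gave 0 to 10 higher and 0 to 7 lower. The cause was not tested. The replicate numbers were not shown to pair libraries (correlation of deviations 0.0162), and with the replicate as a block 12 genes were higher and 6 lower, with 0 members called.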
